A study of Mus musculus with 32 samples.

Results

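Sphingolipid and ceramide enzymes were examined in mouse liver through 10 genes: Sptlc1, Sptlc2, Cers2, Cers5, Cers6, Degs1, Smpd1, Asah1, Sphk1 and Ugcg. They were chosen by name, as the non-control probes whose gene name in the scanner files is one of these symbols. All 10 genes had a probe and all 10 were tested, among 23645 genes tested in all. The 10 genes have 21 of the 56605 probes of the array, and 20 of these were clearly above background in at least 1 group; the exception is a Cers6 probe that was not well above background on any array. The livers came from 32 male F1 C57BL/6J mice, 8 in each of 4 groups that crossed diet with E171, the food-grade form of titanium dioxide that is used as a white colourant. The normal diet control group (ND_CONT) and the Western diet control group (WD_CONT) received no E171, and the groups ND_E171 and WD_E171 received it in the food at a target dose of 10 mg per kg body weight per day. E171 exposure began in the F0 mothers before mating and lasted 21 weeks in the F1 mice, which were sampled at 21 weeks of age. Mice of the Western diet groups, whose diet the protocol calls high in fat, ate it for the last 16 weeks, as adults. The labels give no litter, so mice of a group may be littermates, and the p-values take them as independent. RNA came from whole liver, so a change in the number of cells of a type and a change of RNA per cell cannot be told apart.

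Ceramide is the hub of sphingolipid metabolism. Serine palmitoyltransferase (Sptlc1 and Sptlc2 encode its core subunits) joins serine to a fatty acyl-CoA. Ceramide synthases then attach a second acyl chain of a length that differs between the enzymes, and the desaturase Degs1 introduces the double bond that makes ceramide. Ceramide is also released from sphingomyelin by sphingomyelinases such as Smpd1, and it is turned into glucosylceramide by Ugcg, or split by ceramidases such as Asah1 into sphingosine, which Sphk1 phosphorylates to the signalling lipid sphingosine 1-phosphate. In fatty liver these enzymes have been studied for the part of ceramides in insulin resistance and inflammation.

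Gene levels were read from arrays of 62976 spots and are given as log2 of the background-corrected signal minus the 75th percentile of its array, so a difference of 1 is a doubling and a level of 0 is the upper quartile of that array. Levels of different genes are not comparable with each other, since each probe has its own brightness. Between 32166 and 37261 probes per array were well above background, no spot was saturated, and arrays of a group correlated at 0.979 to 0.994. Each of the 4 slides held 2 mice of every group. The defining hepatocyte transcripts Alb and Ttr were well above background on all arrays, and the mean level of the 10 hepatocyte markers lay between 8.24 and 9.38 in the 32 livers.

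The first question is how the Western diet changed these genes in mice without E171. Of the 10 genes, 4 were higher on the Western diet and none was lower at an adjusted p below 0.05 (limma, Benjamini-Hochberg over all genes), against 47.3% of all tested genes that changed, 18.5% upwards and 28.8% downwards. The 4 were Sphk1 (2.92-fold), Cers6 (1.76-fold), Sptlc2 (1.59-fold) and Cers5 (1.46-fold). In mice given E171 the same 4 genes were higher on the Western diet and Ugcg was lower, against 53.2% of all genes that changed, 22.2% upwards and 31% downwards. The count of changed members, 4 and 5 of 10, is therefore near the share of all genes, while the median difference of the 10 genes was 0.13 in controls and 0.11 in E171 mice beside a median of -0.10 over all genes in both comparisons. The 8 mice per group behind each comparison are different animals in controls and in E171 mice.

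**Figure D1:**
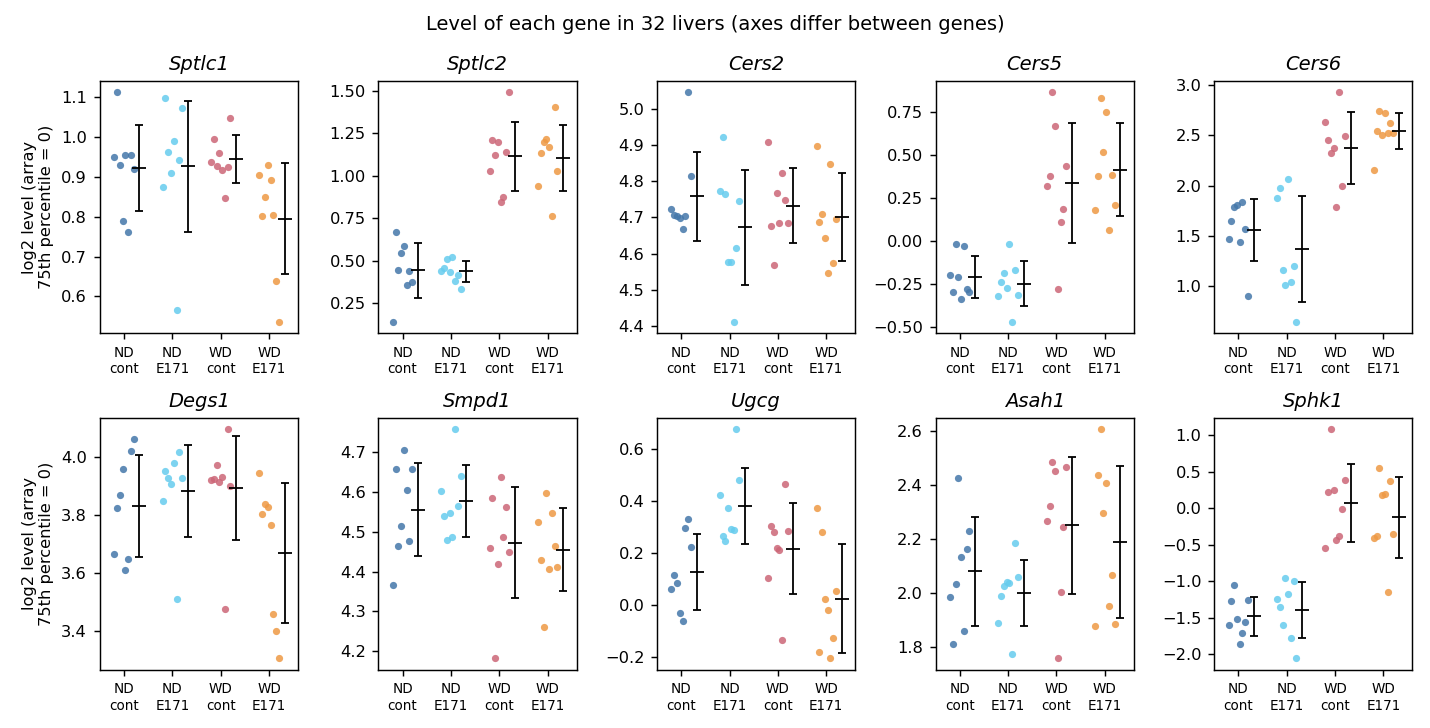
Log2 level of each of the 10 genes in every liver (vertical axis, array 75th percentile at 0; the axis range differs between genes), with the 4 groups on the horizontal axis, points for single mice and bars for mean and SD of 8 mice. The Western diet groups lie above the normal diet groups for Sptlc2, Cers5, Cers6 and Sphk1. For Ugcg the mean is highest in ND_E171 (0.38) and lowest in WD_E171 mice (0.02), beside 0.13 in ND_CONT and 0.22 in WD_CONT mice.

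The promoters of the 4 genes that rose in both diet comparisons are shown because these genes moved together. Each line gives the 250 bases before a transcription start in RefSeq, build GRCm38.p6, 5′ to 3′ on the strand of the gene, with matches to any of 7 short motifs in capitals. RefSeq windows were found for 9 of the 10 genes, 14 windows in all, and Sphk1 has 5 of them, of which the first is shown.
Sptlc2, chr12:87388356-87388605, minus strand: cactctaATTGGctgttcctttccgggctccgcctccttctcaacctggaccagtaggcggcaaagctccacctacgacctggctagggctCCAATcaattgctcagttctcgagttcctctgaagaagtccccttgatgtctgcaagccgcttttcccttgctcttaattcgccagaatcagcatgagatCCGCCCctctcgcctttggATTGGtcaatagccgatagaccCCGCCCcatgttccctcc
Cers5, chr15:99772516-99772765, minus strand: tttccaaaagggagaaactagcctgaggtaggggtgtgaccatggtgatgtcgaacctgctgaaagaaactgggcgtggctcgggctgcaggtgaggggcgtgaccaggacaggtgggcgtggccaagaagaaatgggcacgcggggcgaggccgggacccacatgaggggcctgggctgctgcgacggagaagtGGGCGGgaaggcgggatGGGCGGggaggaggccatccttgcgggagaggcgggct
Cers6, chr2:68861191-68861440, plus strand: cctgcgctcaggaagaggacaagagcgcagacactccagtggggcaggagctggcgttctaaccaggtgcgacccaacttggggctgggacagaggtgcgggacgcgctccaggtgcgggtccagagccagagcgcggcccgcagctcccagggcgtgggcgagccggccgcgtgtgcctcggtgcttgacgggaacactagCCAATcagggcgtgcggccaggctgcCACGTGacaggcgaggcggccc
Sphk1, chr11:116530850-116531099, plus strand: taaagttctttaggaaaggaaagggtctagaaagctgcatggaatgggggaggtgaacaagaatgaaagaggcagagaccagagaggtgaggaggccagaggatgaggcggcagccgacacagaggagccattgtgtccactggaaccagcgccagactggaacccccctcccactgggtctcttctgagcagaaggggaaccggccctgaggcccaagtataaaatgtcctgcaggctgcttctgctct

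The motifs were searched on both strands. The GC box GGGCGG, which Sp1 binds, occurs 2 times in the Sptlc2 window and 2 times in the Cers5 window, and 32.7% of the 32851 windows of all genes hold it. The CCAAT box, spelled CCAAT and bound by NF-Y, occurs 3 times for Sptlc2 and once for Cers6, and 33.9% of all windows hold it. The E-box CACGTG is found before Cers6, in a motif present in 6.02% of all windows. Members that did not rise hold these motifs too. An E-box lies before Cers2 and Degs1, GC boxes before Cers2, Ugcg, Smpd1 and Sptlc1, and a CCAAT box before Cers2, Smpd1 and Sptlc1. The first Sphk1 window holds none of the 7. Windows 2 and 3 of Sphk1 overlap and share a run GCTGAGTCA at chr11:116531785-116531793, in which an AP-1 site (TGANTCA, 6.75% of all windows) overlaps a core of the antioxidant response element (TGACNNNGC, on the other strand, 10.2% of all windows), and windows 4 and 5, also overlapping, share 1 E-box and 1 CCAAT box. No member window holds the sterol response element TCACNCCAC (1.05% of all windows) or the DR4 element (0.0152%), the pair of spaced half-sites bound by LXR. No motif is shared by all 4 promoters shown, and a match is only a match of letters.

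De novo synthesis begins with serine palmitoyltransferase, and its subunit genes differed. Sptlc2, read at chr12:88650718-88650777 (build mm9, minus strand), had levels from 0.14 to 0.67 (median 0.44) in ND_CONT mice and from 0.84 to 1.49 (median 1.13) in WD_CONT mice. Every Western diet control was above every normal diet control. The difference was 0.67 (SE 0.08, n = 8 per group, limma adjusted p = 1.73e-07). Groups did not overlap for 2 of the 10 genes in controls, Sptlc2 and Sphk1, and for 9.96% of all genes. In E171 mice Sptlc2 ran from 0.33 to 0.52 (median 0.44) on the normal diet and from 0.76 to 1.40 (median 1.15) on the Western diet, again without overlap, with a difference of 0.67 (SE 0.08, adjusted p = 1.26e-07). The difference lay between 0.55 and 0.83 on the 4 slides in controls and between 0.54 and 0.81 in E171 mice. A second Sptlc2 probe gave smaller rises of 0.36 and 0.29, both past the threshold over all probes.

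Sptlc1, the other core subunit, showed no called difference. Its mean level was 0.92 ± 0.11 (SD, n = 8) in ND_CONT, 0.95 ± 0.06 in WD_CONT, 0.93 ± 0.17 in ND_E171 and 0.80 ± 0.14 in WD_E171 mice. The diet difference was 0.02 in controls, with a 95% interval from -0.11 to 0.16, and -0.13 in E171 mice (limma adjusted p = 0.0896). Without ND_E171 replicate 6, the lowest mouse of its group, that second difference was -0.18 and passed the threshold (limma adjusted p = 0.00942). A second Sptlc1 probe gave 0.10 in the same comparison, so the probes differ in direction.

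The ceramide synthases split as well. Cers6, whose enzyme prefers a C16 acyl chain, was read at chr2:68952168-68952227 (mm9, plus strand). Its level ran from 0.90 to 1.83 (median 1.61) in ND_CONT and from 1.79 to 2.92 (median 2.41) in WD_CONT mice, and 7 of 8 Western diet controls were above every normal diet control. The difference was 0.81 (SE 0.18, limma adjusted p = 3.76e-04). In E171 mice the range was 0.65 to 2.07 (median 1.18) on the normal diet and 2.15 to 2.73 (median 2.53) on the Western diet. These groups did not overlap, as for 3 of the 10 genes (Sptlc2, Cers5 and Cers6) and for 18% of all genes in this comparison. The difference was 1.16 (SE 0.18, adjusted p = 2.50e-06). ND_E171 had the widest spread of any group for this gene (SD 0.52), with 3 mice between 1.88 and 2.07 and 5 between 0.65 and 1.20. On the 4 slides the difference lay between 0.21 and 1.19 in controls and between 0.75 and 1.53 in E171 mice. All 3 kept Cers6 probes rose in both comparisons, by 0.80 to 1.25 in controls and by 0.73 to 1.16 in E171 mice.

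Cers5, whose enzyme also prefers a C16 chain, has 1 probe, at chr15:99566036-99566095 (mm9, minus strand). Its level ran from -0.34 to -0.02 (median -0.25) in ND_CONT and from -0.28 to 0.86 (median 0.35) in WD_CONT mice. The SD was 0.12 on the normal diet and 0.35 on the Western diet, and 7 of 8 Western diet controls were above every normal diet control. The difference was 0.54 (SE 0.12, limma adjusted p = 3.74e-04). In E171 mice the ranges were -0.47 to -0.02 (median -0.26) and 0.06 to 0.83 (median 0.38), without overlap, and the difference was 0.66 (SE 0.12, adjusted p = 2.63e-05). The slides varied widely, from 0.10 to 1.04 in controls and from 0.47 to 0.96 in E171 mice.

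Cers2, which makes ceramides with very long acyl chains and is the synthase best known from liver, was 4.76 ± 0.12 (SD, n = 8) in ND_CONT, 4.73 ± 0.10 in WD_CONT, 4.67 ± 0.16 in ND_E171 and 4.70 ± 0.12 in WD_E171 mice. All 4 groups overlapped. At the brightest probe the diet differences were -0.03 (95% interval -0.16 to 0.11) in controls and 0.03 (-0.11 to 0.16) in E171 mice. A rise of the size of that of Cers5 or Cers6 lies outside both intervals. A second Cers2 probe gave -0.08 in controls and -0.15 in E171 mice, neither past the threshold over all probes.

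Degs1, the desaturase, had mean levels of 3.83 ± 0.18 (SD, n = 8) in ND_CONT, 3.89 ± 0.18 in WD_CONT, 3.88 ± 0.16 in ND_E171 and 3.67 ± 0.24 in WD_E171 mice. The diet difference was 0.06 in controls (limma adjusted p = 0.626) and -0.22 in E171 mice (adjusted p = 0.058). The second value passed the threshold without ND_E171 replicate 6 (-0.27, adjusted p = 0.0172), without WD_E171 replicate 1 (-0.26, adjusted p = 0.0279) and without WD_CONT replicate 6 (-0.22, adjusted p = 0.0404), as limma gave it. The last of these mice is not in the E171 comparison and enters only the shared estimate of the spread.

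**Figure D2:**
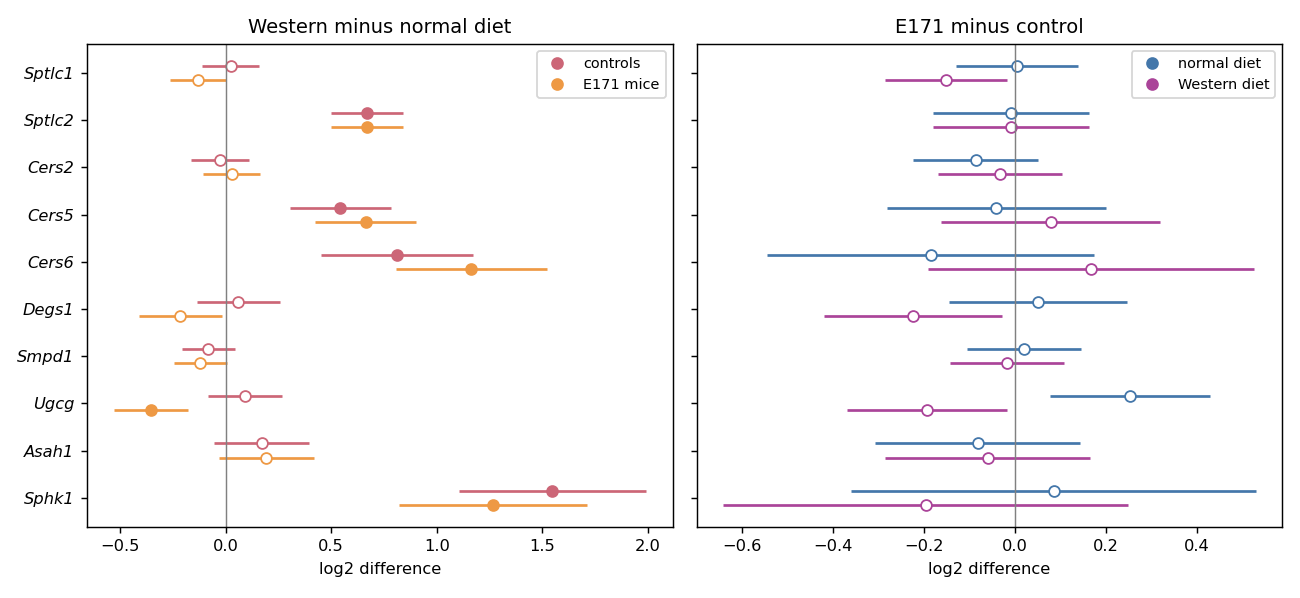
Log2 difference (horizontal axis) of each gene (vertical axis) with its 95% interval from limma, for Western minus normal diet in the left plot and E171 minus control in the right plot; filled points have an adjusted p below 0.05, and each group has 8 mice. Diet differences are called for Sptlc2, Cers5, Cers6 and Sphk1 in both sets of mice and for Ugcg in E171 mice, and no E171 difference is called.

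Sphk1, the sphingosine kinase, had the largest diet difference of the 10 genes in both sets of mice. It was read by 1 probe at chr11:116397908-116397967 (mm9, plus strand). Its level ran from -1.86 to -1.04 (median -1.53) in ND_CONT and from -0.55 to 1.09 (median 0.11) in WD_CONT mice, without overlap. The difference was 1.55 (SE 0.22, limma adjusted p = 1.09e-06). In E171 mice the ranges were -2.05 to -0.95 (median -1.30) and -1.14 to 0.56 (median -0.09), and 7 of 8 Western diet mice were above every normal diet mouse, the other lying within their range. The difference was 1.27 (SE 0.22, adjusted p = 1.70e-05). On the 4 slides it lay between 1.08 and 2.36 in controls and between 0.67 and 1.89 in E171 mice.

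Smpd1, the acid sphingomyelinase, was 4.56 ± 0.12 (SD, n = 8) in ND_CONT, 4.47 ± 0.14 in WD_CONT, 4.58 ± 0.09 in ND_E171 and 4.46 ± 0.10 in WD_E171 mice, with diet differences of -0.08 (limma adjusted p = 0.269) and -0.12 (adjusted p = 0.0945). Asah1, the acid ceramidase, was 2.08 ± 0.20 and 2.25 ± 0.25 in controls on the normal and the Western diet, and 2.00 ± 0.12 and 2.19 ± 0.28 in E171 mice. Its differences were 0.17 (adjusted p = 0.207) and 0.19 (adjusted p = 0.143). Neither lysosomal enzyme had a called diet difference, and their groups overlapped. A second Smpd1 probe gave -0.06 in both comparisons. A second Asah1 probe gave 0.12 in controls and only 0.03 in E171 mice. None of these values passed the threshold over all probes.

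Ugcg, the glucosylceramide synthase, is the only one of the 10 genes called lower, and it has 4 probes. A pair of them, which lie apart in the gene, are shown as examples (build mm9, 5′ to 3′). Both are dimmer than the brightest probe, which gave the levels described below.
Ugcg probe A_65_P00596, chr4:59226071-59226130, plus strand: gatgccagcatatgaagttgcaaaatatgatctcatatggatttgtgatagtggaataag
Ugcg probe A_51_P332717, chr4:59231369-59231428, plus strand: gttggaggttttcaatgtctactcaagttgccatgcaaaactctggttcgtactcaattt

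With the brightest Ugcg probe, at chr4:59235203-59235263, levels ran from -0.06 to 0.33 (median 0.10) in ND_CONT and from -0.13 to 0.46 (median 0.25) in WD_CONT mice. These control groups overlapped and differed by 0.09 (SE 0.09, limma adjusted p = 0.402). In E171 mice levels ran from 0.25 to 0.67 (median 0.33) on the normal diet and from -0.20 to 0.37 (median 0.00) on the Western diet, and 6 of 8 Western diet mice were below every normal diet mouse. Ugcg fell by 0.36 on the log2 scale, or 1.28-fold, in this comparison (SE 0.09, adjusted p = 9.65e-04). It was lower on 4 of 4 slides, by values between -0.52 and -0.23. The 4 probes gave -0.27 to -0.36 in E171 mice, each past the threshold over all probes, and 0.02 to 0.12 in controls, none past it.

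**Figure D3:**
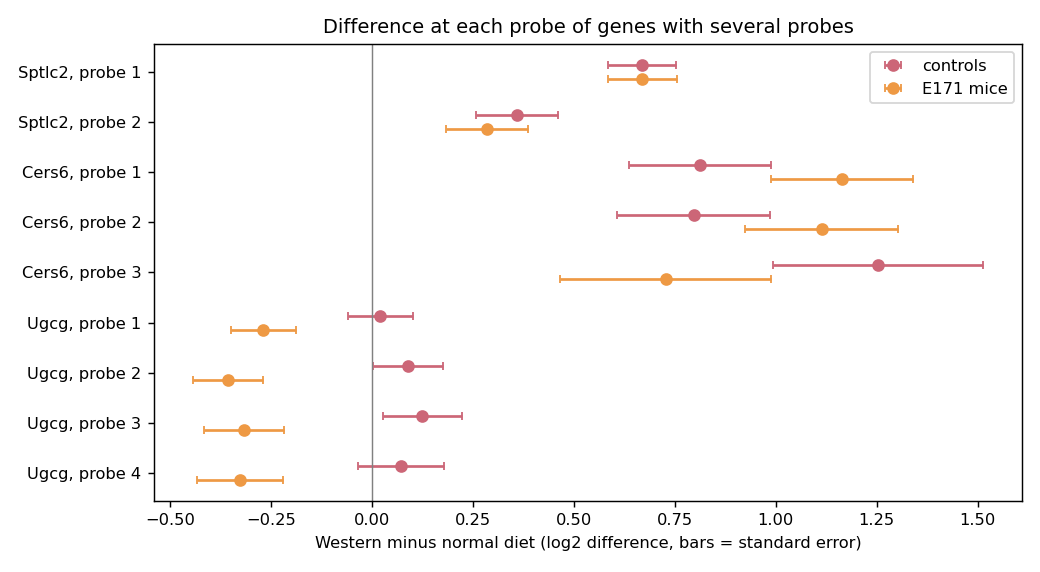
Log2 difference between Western and normal diet (horizontal axis) at each kept probe of Sptlc2, Cers6 and Ugcg (vertical axis), in controls and in E171 mice, with the standard error from limma (8 mice per group). All Sptlc2 and Cers6 probes lie above 0, and the 4 Ugcg probes lie between -0.36 and -0.27 in E171 mice and between 0.02 and 0.12 in controls.

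The second question is whether E171 changed the same genes within a diet. None of the 10 was called on the normal diet, where 0% of the tested genes were called (0 genes, 958 at an unadjusted p below 0.05), nor on the Western diet, where 0.381% were called (90 genes). For Sptlc2 the E171 difference was -0.01 on both diets, with a 95% interval from -0.18 to 0.16 on each. Sphk1, the gene with the largest standard error, had intervals from -0.36 to 0.53 on the normal diet and from -0.64 to 0.25 on the Western diet. At an unadjusted p below 0.05, 1 of the 10 genes differed on the normal diet, beside 958 of all 23645 genes, and 3 on the Western diet, beside 2821 of all genes. Ugcg was 0.25 higher with E171 on the normal diet (unadjusted p = 0.0062 and adjusted p = 0.999 from limma), with 4 of 8 E171 mice above every control. On the Western diet Ugcg differed by -0.19 (adjusted p = 0.368), Degs1 by -0.22 (adjusted p = 0.339) and Sptlc1 by -0.15 (adjusted p = 0.356).

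The third question is whether E171 altered the response to diet, which the interaction tests. None of the 10 genes was called, and 0% of all genes were (0 genes, 1223 at an unadjusted p below 0.05). Ugcg had a difference between its diet effects of -0.45 (SE 0.12, 95% interval -0.69 to -0.20, unadjusted p = 9.46e-04 and adjusted p = 0.795 from limma). Its call in E171 mice and the lack of one in controls are therefore not shown to differ after adjustment. All 4 probes gave an interaction of the same sign, from -0.29 to -0.45, with limma adjusted p-values of at least 0.82. They read the same gene in the same mice, so they are not independent of each other. For the 4 genes that rose in both comparisons the interaction was 0.00 for Sptlc2, 0.12 for Cers5, 0.35 for Cers6 and -0.28 for Sphk1, with adjusted p-values of at least 0.999.

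The 10 genes also varied between mice of a group, and some varied together. Over the 45 pairs, levels with the group means removed were correlated across the 32 mice, and 9 pairs passed the threshold by Pearson's r after adjustment over the 45 (permutation test within groups, two-sided, 100000 permutations), 7 with a positive and 2 with a negative coefficient. By Spearman's rho 4 of these 9 passed, Cers5 with Sphk1, Asah1 and Smpd1 and Sptlc2 with Sphk1, and no other pair did. The highest was Cers5 with Sphk1, at Pearson r = 0.72 (permutation adjusted p = 0.0015) and Spearman rho = 0.68 (permutation adjusted p = 0.00428). Without the 2 mice farthest from the median of Cers5, r was 0.66, and with slide means removed as well it was 0.69. Within the groups r was 0.26 in ND_CONT, 0.49 in ND_E171, 0.81 in WD_CONT and 0.84 in WD_E171 mice. The coefficients were higher in the Western diet groups, where both genes had the wider spread, and the difference between the coefficients was not tested.

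Cers5 rose and fell across mice with Asah1 (r = 0.72, rho = 0.64, permutation adjusted p = 0.0015 and 0.00975; 0.63 without the 2 farthest mice) and against Smpd1 (r = -0.68, rho = -0.63, permutation adjusted p = 0.0015 and 0.00428; -0.55 without them). With slide means removed these were 0.60 and -0.61. Under quantile normalization they were 0.76 and -0.50 (permutation adjusted p = 0.00135 and 0.034). The other negative pair, Smpd1 with Sphk1, had r = -0.51 (permutation adjusted p = 0.0334). It weakened to -0.27 under quantile normalization (permutation adjusted p = 0.3). Within groups, Cers5 and Asah1 had a coefficient of the opposite sign in ND_CONT (-0.31), against 0.69 in ND_E171, 0.93 in WD_CONT and 0.88 in WD_E171 mice, while Cers5 and Smpd1 lay between -0.88 and -0.42 in the 4 groups. Sptlc2 and Sphk1 correlated at r = 0.59 (rho = 0.56, permutation adjusted p = 0.0126 and 0.018; 0.51 without the 2 farthest mice), and at 0.50 with slide means removed, where the permutation adjusted p was 0.0529. Sptlc1 and Degs1 correlated at r = 0.62 with a rho of 0.41 (permutation adjusted p = 0.0113 and 0.0804), and r fell to 0.42 without the 2 farthest mice, so this relation rests partly on them. The median r of the 45 pairs was 0.19. Cers6 and Ugcg, which the diet moved in opposite directions in E171 mice, are each missing from the pairs that passed except for Ugcg with Degs1 (r = 0.55, rho = 0.47, permutation adjusted p = 0.0278 and 0.065; 0.39 without the 2 farthest mice).

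**Figure D4:**
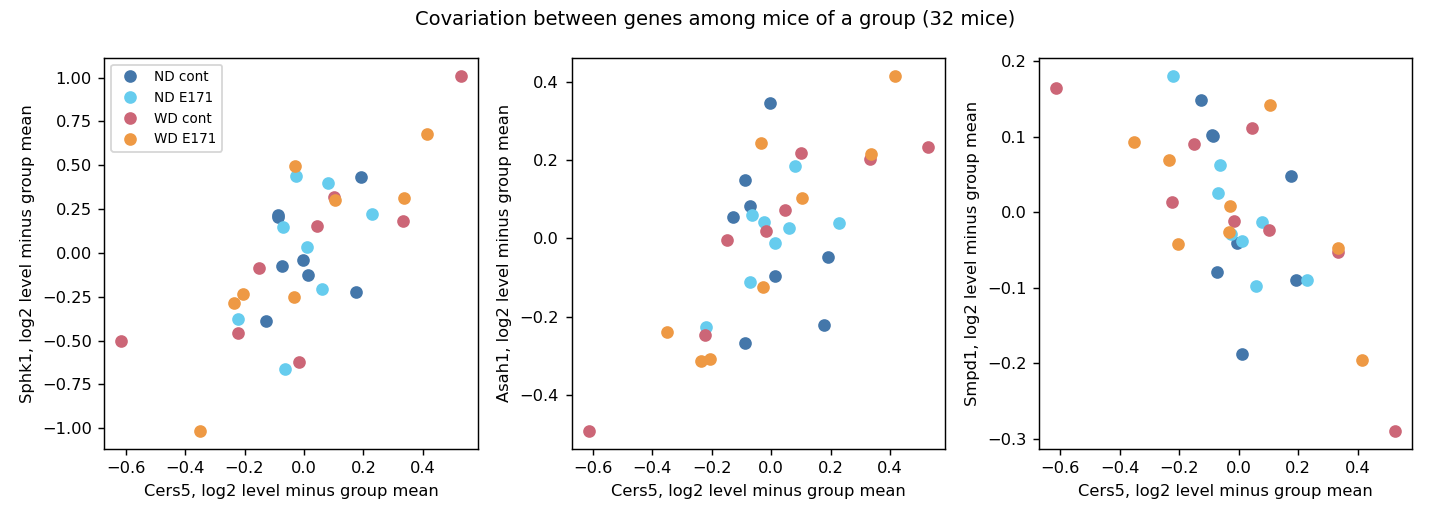
Level minus group mean (log2) of Sphk1, Asah1 and Smpd1 (vertical axes) against that of Cers5 (horizontal axes) in 32 mice, 1 point each, coloured by group. Points of the Western diet groups spread widest along the Cers5 axis, and with rising Cers5 the points go up for Sphk1 (r = 0.72) and Asah1 (r = 0.72) and down for Smpd1 (r = -0.68).

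Markers of liver cell types moved with the diet as well. Beside the counts below, 18.5% of all tested genes were higher and 28.8% lower in controls, and 22.2% and 31% in E171 mice. In controls, 9 of 10 hepatocyte markers were lower on the Western diet, and the range of their mean level was 8.86 to 9.31 in ND_CONT and 8.35 to 9.21 in WD_CONT mice. For the lipid-associated macrophage list 7 of 8 markers were higher, and the ranges were -1.13 to -0.36 and 1.001 to 3.32. Gpnmb was not well above background on any ND_CONT array. The cholangiocyte list had 5 of 7 markers higher, with ranges of -2.21 to -1.26 and -1.82 to 0.41. The macrophage and cholangiocyte lists share Spp1. Kupffer cell markers were higher in 7 of 10 (1.49 to 3.39 and 2.34 to 3.62), stellate cell markers in 5 of 8 with 1 lower (0.71 to 1.58 and 1.28 to 2.25) and endothelial markers in 2 of 8 with 2 lower (1.63 to 2.08 and 1.73 to 2.24). The T and NK cell list had 2 of 8 markers higher and 3 lower, the B cell list 1 of 6 higher and 1 lower, the neutrophil list 2 of 6 higher and 1 lower, and the adipocyte list 2 of 5 higher and 2 lower. In E171 mice, 8 of 10 hepatocyte markers were lower on the Western diet (8.73 to 9.38 in ND_E171 and 8.24 to 8.87 in WD_E171). The lipid-associated macrophage list had 7 of 8 markers higher there (-1.21 to -0.74 and 1.63 to 3.09), the cholangiocyte list 6 of 7 (-2.32 to -1.48 and -1.78 to 0.11) and the neutrophil list 5 of 6 with 1 lower (-2.31 to -0.96 and -0.84 to 0.14). Of the macrophage list, Gpnmb and Mmp12 were not well above background on any ND_E171 array. Their fold changes are uncertain, and the ND_E171 level of that list rests partly on values near background. Kupffer cell markers were higher in 7 of 10, stellate cell markers in 5 of 8 with 1 lower, endothelial markers in 2 of 8 with 2 lower, T and NK cell markers in 4 of 8 with 2 lower, B cell markers in 1 of 6 and adipocyte markers in 2 of 5 with 2 lower.

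Levels of the 10 genes were set against the mean of each of 10 marker lists across the 32 mice, group means removed, and 27 of 100 relations passed the adjusted threshold by Pearson's r and 23 by Spearman's rho, 21 of them by both. Sphk1 followed the cholangiocyte list most closely, at r = 0.88 and rho = 0.84 (permutation adjusted p = 2.0e-04 and 4.0e-04), with r = 0.86 without the 2 farthest mice and 0.86 with slide means removed. Within groups this was 0.50 in ND_CONT, 0.93 in ND_E171, 0.88 in WD_CONT and 0.99 in WD_E171 mice. Cers5 followed the lipid-associated macrophage list at r = 0.84 (rho = 0.79, permutation adjusted p = 2.0e-04 and 3.33e-04; 0.79 without the 2 farthest mice; 0.80 with slide means removed), and Sptlc2 followed it at r = 0.61 (rho = 0.64, permutation adjusted p = 0.0112 and 0.0057; 0.49 and 0.55), with -0.11 in ND_CONT and 0.56 to 0.82 in the other groups. Asah1, with no called diet difference, followed the same list at r = 0.80 (rho = 0.74, permutation adjusted p = 2.0e-04 and 4.0e-04; 0.73 and 0.73). Against the hepatocyte list Cers5 had r = -0.74 (rho = -0.68, permutation adjusted p = 7.14e-04 and 0.00238; -0.64 and -0.68). Cers6 and Ugcg passed the threshold with none of the 10 lists. The part of these cell types in the diet differences was not tested.

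By its likeness to Sphk1 over the same 32 mice, the gene with the largest called difference, the nearest of 18227 named genes were Bicc1 (r = 0.92), Cldn7 (r = 0.92), Ddr1 (r = 0.92), Sobp (r = 0.91) and Tmem229a (r = 0.90). Bicc1, an RNA-binding protein, rose by 1.101 with diet in controls and Ddr1, a collagen receptor, by 1.37, while Cldn7, a claudin of epithelial tight junctions, rose by 0.69 and Sobp by 0.99. Tmem229a differed by 0.34 (limma adjusted p = 0.223). These coefficients are descriptions, chosen as the highest of many.

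The other genes of the pathway were taken from 5 lists of 68 genes, of which 59 could be tested. In controls 22 were higher on the Western diet, 14 were lower and 23 were not called, and in E171 mice 23 were higher, 18 lower and 18 not called. Of all tested genes 18.5% were higher and 28.8% lower in controls, and 22.2% and 31% in E171 mice. These shares also stand beside the counts of the single lists below, and no list was tested against them. The median difference of the 59 genes was 0.04 and 0.07, beside -0.10 for all genes. Of the 59 genes 34 were called in both sets of mice, 21 higher and 13 lower, and none was called in opposite directions. None was called for E171 within a diet or for the interaction.

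Around de novo synthesis the list of regulators and further enzymes had 2 genes higher and 2 lower of 10 tested in controls, and 3 higher and 5 lower in E171 mice. Degs2, counted lower in E171 mice at -0.26 by its brightest probe, differed by 1.73 at its other kept probe. Kdsr, which reduces the product of serine palmitoyltransferase and was picked out here after its values were seen, ran from 0.99 to 1.34 (median 1.18) in ND_CONT and from 1.65 to 2.32 (median 2.04) in WD_CONT mice, without overlap. It rose by 0.82 (SE 0.08, limma adjusted p = 1.08e-09) in controls and by 0.81 in E171 mice, and by 0.34 and 0.29 at a second probe. Sptlc3, a further subunit of serine palmitoyltransferase, fell by 0.30 in controls and by 0.21 in E171 mice, opposite to Sptlc2. The family that restrains the transferase did not move one way. Ormdl2 fell by 0.45 and by 0.63, while Ormdl3 rose by 0.19 and 0.24. Ormdl1 differed by -0.18 in controls, which was not called (limma adjusted p = 0.0758), and fell by 0.21 in E171 mice.

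Of 12 genes of sphingomyelin and ceramide phosphate, 5 were higher and 1 was lower in both sets of mice. Smpd3, a neutral sphingomyelinase, had the largest rise of the pathway. It ran from -2.98 to 0.94 (median -1.28) in ND_CONT and from 0.73 to 2.79 (median 2.12) in WD_CONT mice, a difference of 3.29 (SE 0.46, limma adjusted p = 1.05e-06), and the groups overlapped slightly. In E171 mice it ran from -3.27 to -0.58 and from 2.06 to 2.89, without overlap, a difference of 4.74 (SE 0.46, adjusted p = 1.54e-09). Cerk, which phosphorylates ceramide, rose by 0.93 and 0.95. Smpdl3b, a sphingomyelinase-like protein, was not well above background on any ND_CONT array and was on 6 WD_CONT arrays. Its mean levels there were -5.72 and -4.65. Of these groups only WD_CONT met the filter on dim probes. Its call as higher in controls is therefore not taken as support, and its fold change is uncertain. While Smpd3 rose in both sets of mice, the acid sphingomyelinase Smpd1 was not called in either. The neutral sphingomyelinases Smpd2 (-0.09 in controls and 0.06 in E171 mice) and Smpd4 (-0.14 and 0.05) were not called either.

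The glycosphingolipid synthesis list, downstream of Ugcg, had 6 genes higher and 2 lower of 10 in controls, and 5 higher and 1 lower in E171 mice. Gal3st1, which makes sulfatide, ran from -3.79 to -2.20 (median -2.74) in ND_CONT and from -1.06 to 0.71 (median 0.05) in WD_CONT mice, without overlap, and rose by 2.80 (SE 0.26, limma adjusted p = 8.53e-10) in controls and by 3.24 in E171 mice. B4galt6, which adds galactose to glucosylceramide, rose by 1.30 and 1.63, and Gltp, a glycolipid transfer protein, by 1.11 and 1.07. Of the genes that build gangliosides, B4galnt1 fell by 0.39 in controls and by 0.49 in E171 mice. St8sia1 fell by 0.31 in controls, and its difference of -0.18 in E171 mice was not called (limma adjusted p = 0.177). Ugcg itself was not called in controls.

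In lysosomal breakdown of glycosphingolipids 5 of 13 genes were higher and 4 lower in controls, and 6 and 4 in E171 mice. Hexa, which encodes a lysosomal enzyme of ganglioside breakdown, rose by 1.09 in controls and by 1.15 in E171 mice. Gm2a, an activator protein that takes part in the breakdown of the ganglioside GM2, fell by 0.42 and by 0.76, and the non-lysosomal glucosylceramidase Gba2 fell by 0.48 and by 0.33. Genes of this list thus had called differences of opposite sign.

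On the sphingosine 1-phosphate side, around Sphk1, 4 of 14 genes were higher and 5 lower in controls, and 4 and 7 in E171 mice. Acer2, counted lower by its brightest probe, has 3 kept probes that differ in direction. They ran from -0.23 to 0.68 in controls and from -0.31 to 0.81 in E171 mice. Aldh3a2, which oxidises the fatty aldehyde left when sphingosine 1-phosphate is cleaved, rose by 1.79 (SE 0.12, limma adjusted p = 8.22e-13) and 1.94, and Sgpl1, the lyase that cleaves it, fell by 0.26 and by 0.23. Apom, the apolipoprotein that carries sphingosine 1-phosphate in plasma, ran from 5.97 to 6.97 (median 6.75) in ND_CONT and from 4.46 to 5.87 (median 5.26) in WD_CONT mice, without overlap. Apom fell by 1.49 (SE 0.26, limma adjusted p = 2.85e-05) in controls and by 2.21 in E171 mice. The receptor S1pr2 rose by 1.002 and 1.13, while the receptor S1pr1 fell by 0.90 and by 0.93. Mfsd2b, an exporter of sphingosine 1-phosphate, fell by 0.26 and by 0.17.

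**Figure D5:**
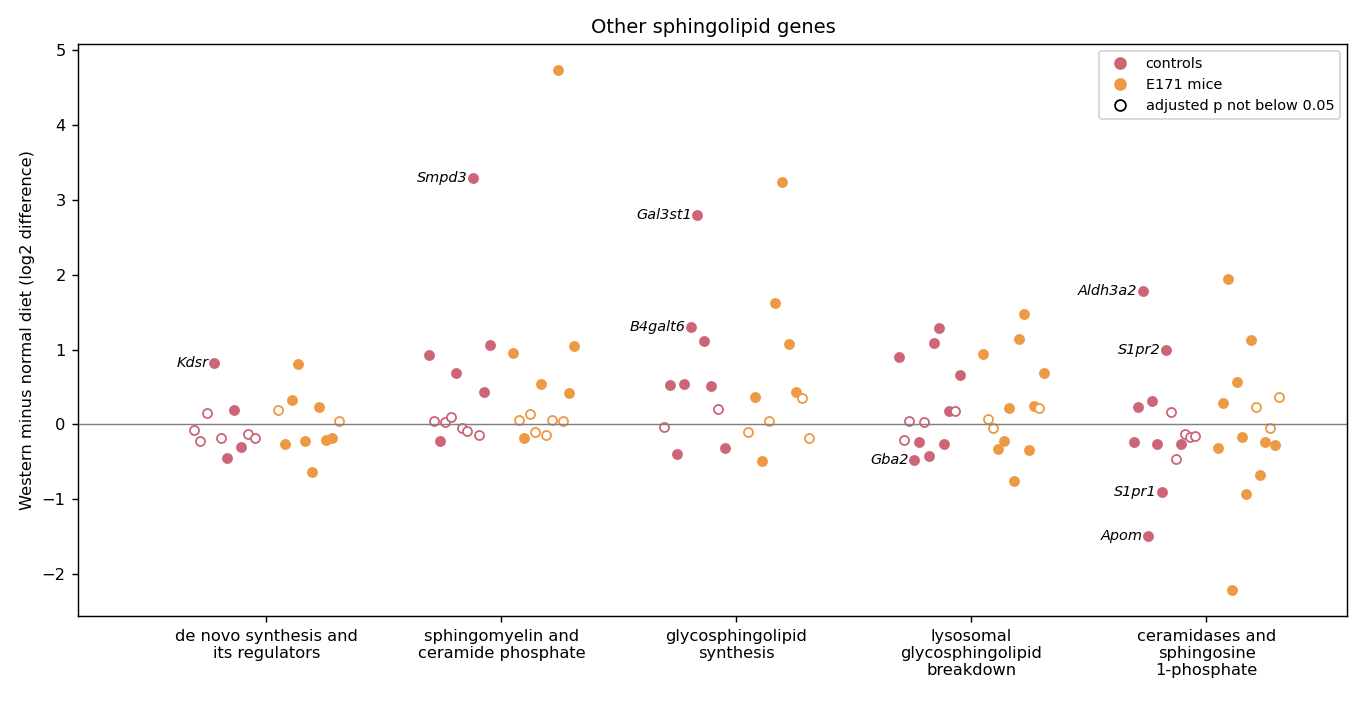
Log2 difference between Western and normal diet (vertical axis) for 59 other sphingolipid genes in 5 lists (horizontal axis), in controls and in E171 mice (8 mice per group); filled points have a limma adjusted p below 0.05. Smpd3 (3.29 and 4.74), Gal3st1 (2.80 and 3.24) and Aldh3a2 (1.79 and 1.94) are the highest points, and Apom (-1.49 and -2.21) is the lowest.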

How the data were processed

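Cy3-labelled liver RNA of 32 mice was hybridised to 1-colour Agilent arrays. Per the file headers, the deposited scanner files hold a processed signal intensity for each spot, already background-subtracted by Agilent Feature Extraction 10.10.1.1, the version in the submitters' processing notes, which also name limma. The deposited value table holds the authors' log2 values for 36695 probes; its normalization is not given in the sources used here, its lowest correlation with the log2 processed signal was 0.989, and it was used only as an alternative. Outlier spots were left out (42 to 91 per array, 78 missing probe values), spots of a probe averaged, and log2 intensity was scaled to the 75th percentile of the array. Kept were 35778 probes that Feature Extraction marked as well above background in 6 or more mice of any group. A gene was read by its brightest probe: 18248 genes had a name, through RefSeq accession, symbol or the file's own name, and 5397 probes stood alone. Group means were fitted over all 32 arrays with lmFit and eBayes (limma 3.58.1, R 4.3.3), with Benjamini-Hochberg adjustment over 23645 genes for each of 5 contrasts; the same fit over all kept probes gave the probe values. The procedure was tested on simulated data. Members and lists were chosen with earlier results of these data known. Named were all members with each probe, the 10 called pathway genes with the largest rise and the 10 with the largest fall in controls, as far as their roles are sure and except 1 not reported here, and the 5 genes most like Sphk1; Kdsr, Ormdl1 and Ormdl3 were added after their values were seen. No label says that same-numbered mice are paired. Over 48 same-number pairs of arrays the median correlation of deviations from the group mean was 0.07 (-0.30 to 0.57). It was -0.02 for arrays of other numbers in other groups, and 8 of 32 arrays correlated best with their own number. These values do not decide whether the mice are paired. Alternatives were another background correction, quantile normalization, the deposited values, other filters, the mean of probes, slide or replicate number as a block, only the groups compared and, added after seeing the data, mice that stood apart left out and the relations with marker lists. The number of arrays limits the precision. The exon or UTR position of the probes was not analysed here.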

Additional observations from a re-analysis of the deposited data

Results flagged for a closer look

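Each of the 10 genes was examined in each of the 4 groups, 40 combinations, for a mouse whose gap to the next is a larger share of the range of its 8 mice than Dixon's 95% value. Chance marks about 1 in 20 such groups, and 6 of 40 were marked. Degs1 was marked for ND_E171 replicate 6 (3.51, next mouse 3.85) and WD_CONT replicate 6 (3.48, next 3.90), both low. The same ND_E171 mouse was low for Sptlc1 (0.56, next 0.87). Cers6 was low in ND_CONT replicate 8 (0.90, next 1.45) and in WD_E171 replicate 1 (2.15, next 2.50), and Cers2 was high in ND_CONT replicate 7 (5.04, next 4.81). The Cers6 and Cers2 mice changed no call of those genes when left out, while the Degs1 and Sptlc1 calls in E171 mice did change, as given with those genes.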

How the results depend on the processing

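The rises of Sptlc2, Cers5, Cers6 and Sphk1 in both diet comparisons and the fall of Ugcg in E171 mice kept their direction and stayed past the threshold under each of 14 alternatives: Sphk1 lay between 1.15 and 1.61 in controls and between 0.92 and 1.31 in E171 mice, and Ugcg in E171 mice between -0.41 and -0.29. The members called stayed at 4 in controls and ranged from 5 to 7 in E171 mice, with 0 for E171 and for the interaction. Calls were gained in E171 mice for Cers2 (0.15, limma adjusted p = 0.0445) and Asah1 (0.29, limma adjusted p = 0.0414) with the deposited values; over 14 alternatives their adjusted p ranged up to 0.991 and 0.508. No label pairs same-numbered mice. With the replicate block 4 members stayed called in controls and 6 were called in E171 mice, Degs1 being added (-0.22, limma adjusted p = 0.034). The block raised the share of genes called for E171 on the Western diet from 0.381% to 0.723%, and a fit of only those groups lowered it to 0.161%; for the interaction the share rose from 0 to 0.00423% under the block and to 0.00267% without the filter on dim probes, which tests 37488 genes. In 24 cases an uncalled difference changed sign, for Cers2, Smpd1, Asah1, Sptlc1 and Sptlc2, with no call on either side. Of all genes called in controls 39.2% were higher, and 54.5% with the deposited values. Pairs of members past the threshold by Pearson's r were 9, 12 with quantile normalization and 6 with slide means removed, and relations with marker lists 27, 24 and 20. The cause of these shifts was not tested.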
